A study of Homo sapiens with 2 samples.

Results

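The 5′ unprobed part of the lncRNA DRAIC is the stretch from nt 1 to nt 676, which lies upstream of the 431 nts whose SHAPE reactivity was measured, which begin at nt 677. Described here are the listed base pairs with both nts in that stretch, chosen by position alone and with no cut-off on their probability. There were 1500 such pairs among the 3469 of the deposited model of the 1735-nt RNA. The stretch held exon 1 (nts 1 to 298), exon 2 (nts 299 to 485) and the first 191 nts of exon 3 (nts 486 to 676). Total RNA came from LNCaP, an established human prostate cancer cell line. After removal of protein it was folded for 20 min at 37 °C and then treated for 10 min at 37 °C with the SHAPE reagent 5-nitroisatoic anhydride (5NIA, 25 mM by the sample labels) or with DMSO as the control. The methods text of the paper gives a higher concentration of 5NIA. Each treatment had 1 library, and the deposited model is a single one made from both. The values below therefore carry no error between replicates, and the comparisons are descriptions without a test. Because no reactivity was measured on nts 1 to 676, their pairing came from the folding energy of the sequence and from its competition with the restrained nts.

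An RNA strand folds back on itself through short double helices of Watson–Crick (G–C and A–U) and wobble (G–U) pairs, which enclose hairpin loops or stack across bulges and internal loops. A partition function weighs all such folds and gives each possible pair a probability. A nt may spread its probability over several partners that cannot form at the same time. A high value for a single pair means that the model has a clear preferred partner, while a high sum made of many low values means that the nt is mostly paired but with no clear partner. DRAIC is a tumor-suppressive lncRNA that lowers NF-κB activity by binding the kinase subunit IKKα. The hairpin that carries this activity lies downstream of the stretch described here.

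The helices are shown first, because their sequences are what the model placed in pairs. A helix is a chain of at least 3 nested pairs above 0.5 with at most 10 unpaired nts between successive pairs. Each sequence runs 5′ to 3′ from the first to the last nt of the helix, with the loop included. Capitals mark nts in a pair above 0.5. The letters are those of GENCODE transcript DRAIC-244 from its nt 31 on (GRCh38, plus strand), a placement at which all 3469 listed pairs were canonical. All helices with at least 5 pairs are given.

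Exon 1, nts 22 to 54 (chr15:69561741-69561773): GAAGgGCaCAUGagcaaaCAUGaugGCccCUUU
Exon 1, nts 56 to 96 (chr15:69561775-69561815): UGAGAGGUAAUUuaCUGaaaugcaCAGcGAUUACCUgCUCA
Exon 1, nts 97 to 132 (chr15:69561816-69561851): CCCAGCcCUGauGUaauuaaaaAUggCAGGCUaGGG
Exon 1, nts 150 to 202 (chr15:69561869-69561921): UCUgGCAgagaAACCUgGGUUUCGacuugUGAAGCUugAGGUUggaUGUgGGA
Exon 2, nts 325 to 374 (chr15:69563142-69563191): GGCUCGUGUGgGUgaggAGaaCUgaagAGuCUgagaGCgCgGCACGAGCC
Exons 2 and 3, nts 412 to 541, with the helix of nts 468 to 527 inside it (chr15:69563229-69563645, spliced): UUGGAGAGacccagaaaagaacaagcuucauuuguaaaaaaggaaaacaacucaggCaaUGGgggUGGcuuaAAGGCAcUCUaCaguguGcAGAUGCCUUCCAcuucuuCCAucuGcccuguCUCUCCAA

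Most listed pairs of the stretch were improbable, as in the list as a whole, and the probable ones were gathered in a small number of helices. The probabilities ran from 0.00125 to 1.00 with a median of 0.0291, and 1109 of the 1500 pairs (73.9%) were below 0.1, against 71.8% of all 3469 listed pairs. A probability above 0.5 was reached by 106 pairs (7.07%), against 9.25% of all 3469 listed pairs. Above 0.95 there were 12 pairs (0.80%), against 1.93% of all listed pairs. Of the pairs with both nts probed, 25.2% were above 0.5 and 14.2% above 0.95. Of those with both nts 3′ of the probed nts, which were also modeled without reactivities, 8.51% were above 0.5 and 0.526% above 0.95. The shares of the 2 unprobed ends at 0.5 thus lay close to each other and to the value over the whole list. The median span of the 1500 pairs, the distance from one nt to its partner, was 63 nts, and the widest pair joined nts 17 and 609 over 592 nts at a probability of 0.00933. By summed probability, 67.1% of the pairing spanned at most 50 nts and 10.2% more than 300 nts. In the 3′ unprobed part the corresponding shares were 57.6% and 3.36%. The arc plot of the pairs above 0.1 shows these helices as coloured arcs under wider grey ones.

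**Figure D1:**
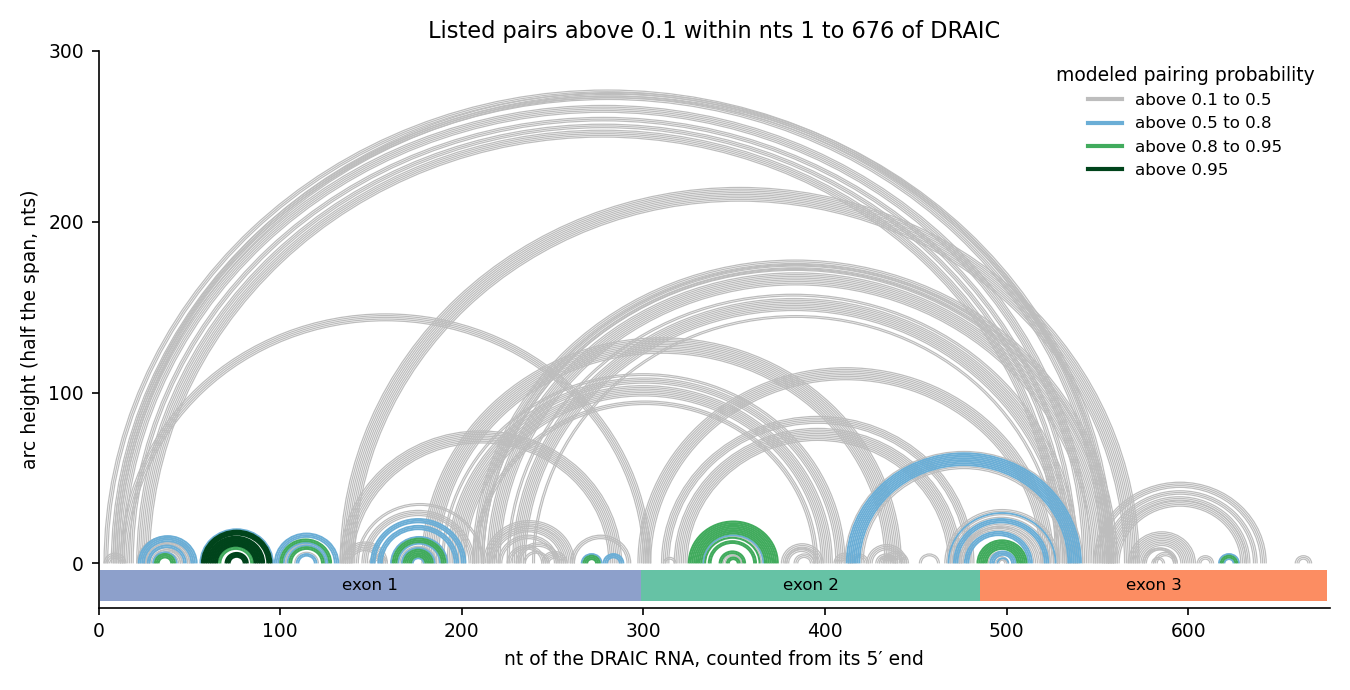
Each arc joins the nts of a listed pair with a modeled probability above 0.1, by its position from the 5′ end of the RNA (x axis). Arc height is the span divided by 2, in nts, and the colour gives the probability class. Arcs above 0.95 occur at nts 57 to 95 in exon 1, and the widest arcs, from exon 1 to exon 3, are all grey (0.5 or lower).

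Pairing stayed mostly within exons. Pairs with both nts in the same exon took 73.7% of the summed probability of the 1500 pairs, with 41.1% within exon 1, 19.9% within exon 2 and 12.7% within exon 3. Exon 1 held 61 of the 106 pairs above 0.5, among 513 listed within it, and all 12 above 0.95. Exon 2 held 16 above 0.5 among 243 listed, and exon 3 held 12 among 205. Over all 1500 pairs the share above 0.5 was 7.07%, and over all 3469 listed pairs 9.25%. The highest pair within exon 1 was 62-89 at 1.00, next to 0.934 for 346-353 within exon 2 and 0.924 for 487-508 within exon 3. Pairs between exons 2 and 3 took 9.97% of the probability. Of the 73 listed, 17 were above 0.5, a higher share than within any exon. The highest, 485-510 at 0.906, used the last nt of exon 2. No pair of exon 1 with another exon passed 0.5, although 200 such pairs with exon 2 and 266 with exon 3 were listed. The highest of them were 200-400 (0.226) with exon 2 and 216-552 (0.416) with exon 3. The exon 1–exon 3 pairs still added up to 11.1% of the probability, spread thinly over wide spans with a median of 399 nts.

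**Figure D2:**
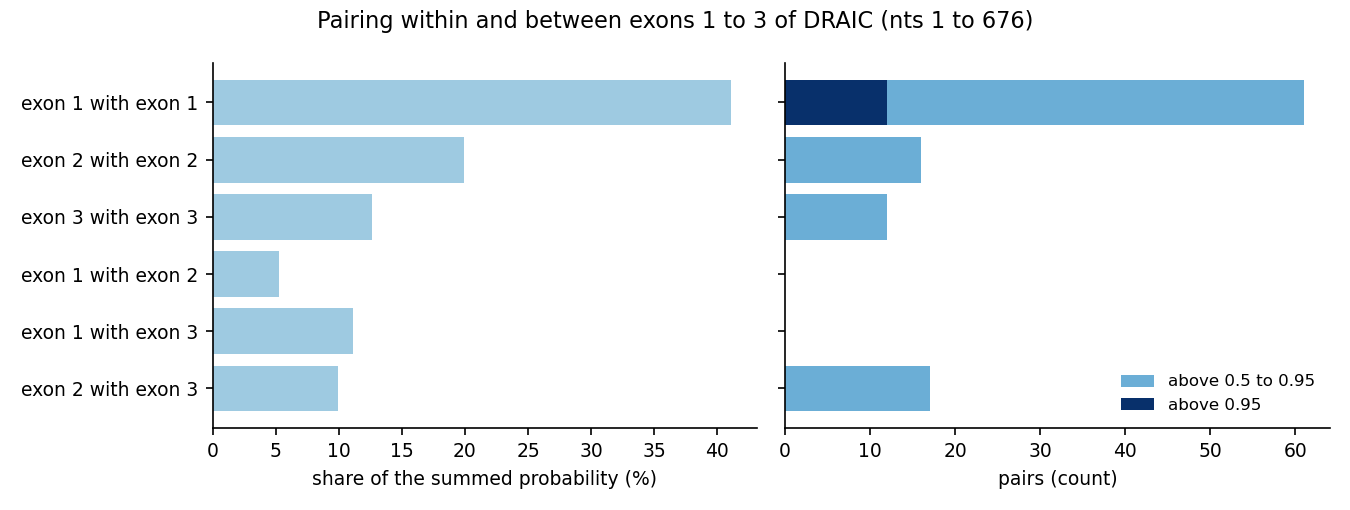
Left, share of the summed probability of the 1500 pairs that falls in each pair of exons (%); right, number of pairs above 0.5, with those above 0.95 in dark. Exon 1 with itself leads both panels (41.1% and 61 of its 513 listed pairs). Exon 2 with exon 3 has 17 of 73 above 0.5. Exon 1 with exon 3 has 11.1% of the probability but 0 pairs above 0.5.

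Most of the listed pairing of the stretch stayed within it. No pair of the whole model spanned more than 592 nts, so partners farther away are not in the list, and for most nts of exons 1 and 2 this leaves out much of the downstream RNA. Of the summed probability of its 676 nts over all listed pairs, 93.1% went to partners within the stretch and 6.90% to the probed nts. In a fold of the whole RNA without restraints and without a limit on span, the share kept within the stretch was 75.3%. For exon 1 the share kept within the stretch was 99.9% and for exon 2 it was 96.6%. For the exon 3 nts it was 78.4%, and 21.6% went to the probed nts. The link to the probed region consisted of 263 listed pairs, 13 of them above 0.5, and the most 5′ nt in those 13 was nt 656.

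Seen per nt, the pairing of the stretch was spread over more partners than that of the probed nts. The median summed probability of a nt was 0.614 and the median of its highest single pair was 0.366, against 0.396 for the probed nts. A pair above 0.5 was found at 225 nts (33.3%) of the stretch and at 194 of the 431 probed nts. The medians of the highest pair were close to each other in exon 1 (0.366), exon 2 (0.358) and exon 3 (0.370). A nt had a median of 4 listed partners, and 17 at most, whereas a probed nt had a median of 2. The median was also 4 in the 3′ unprobed part. The entropy of a nt is −Σp log10 p over its pairs, which is 0 for 1 certain partner and also for no listed pair. Its median was 0.250 in the stretch, 0.0707 in the probed region and 0.260 in the 3′ unprobed part. No pair was listed for 27 nts of the stretch and 72 probed nts. Without such nts the medians were 0.257, 0.124 and 0.269. A pair above 0.95 was found at 30 nts (4.44%), against 21.3% of the probed nts and 1.91% in the 3′ unprobed part. Of the 30, 24 were in exon 1 and 6 in exon 3. The 6 nts of exon 3 pair with probed nts. The sum exceeded 1 at 12 nts, at most 1.03. Of these, nts 325, 473, 474, 475 and 478 lay in exon 2 and nts 533, 534, 537, 538, 571, 572 and 573 in exon 3. The listed values are therefore not exact shares there.

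**Figure D3:**
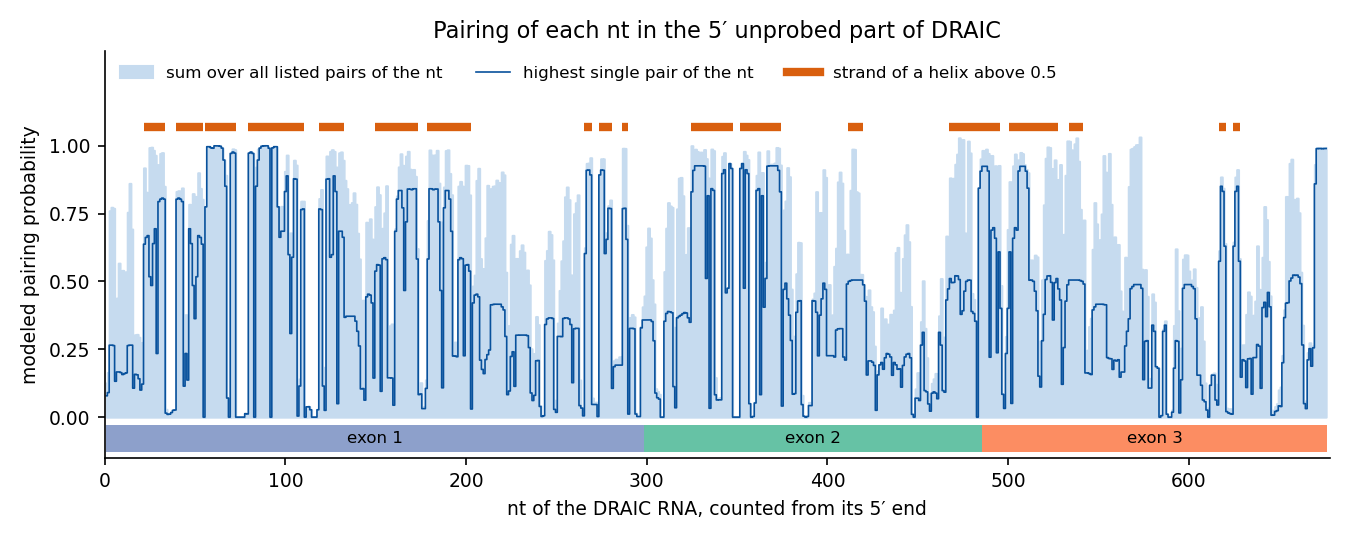
Sum of the modeled probabilities of all listed pairs of a nt (pale fill) and its highest single pair (dark line), for nts 1 to 676; orange bars mark the strands of the 10 helices above 0.5. The line meets the top of the fill in the helix of nts 56 to 96 and at the 3′ end, where nts pair with the probed region. Over parts of each exon the fill stands well above the line.

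The bases differed in how much they were paired. Adenines had a mean summed probability of 0.354 (197 nts), below cytosines at 0.672 (149 nts), guanines at 0.645 (185 nts) and uracils at 0.639 (145 nts). Adenine was also the least paired base in the probed region (0.317) and in the 3′ unprobed part (0.395). Of the 102 nts with a summed probability below 0.1, 70 (68.6%) were adenines, which made up 29.1% of the stretch. The longest unpaired runs were the loop AAUUAAAA at nts 111 to 118, the loop AAAUGCA at nts 73 to 79, the loop AGCAAA at nts 34 to 39 and, outside any helix, AAAACA at nts 386 to 391. No nt in these runs had a summed probability above 0.0802.

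The 106 pairs above 0.5 fell without exception into 10 helices, listed here in order along the RNA. They used 212 nts (31.4% of the stretch) and 45.3% of the summed probability of the 1500 pairs. By kind, 54 were G–C, 42 A–U and 10 G–U pairs. G–U pairs made up 9.43% of them, and 13.9% of the 1394 pairs at or below 0.5. Of the 10 helices, 9 were hairpins that enclose a loop of 4 to 8 nts. The remaining helix, at nt 412, enclosed 1 of the hairpins. In 8 helices both strands came from the same exon.

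Exon 1 contained 6 hairpins, and the best-determined helix of the stretch was among them. The helix of nts 56 to 96 had 15 pairs with a median probability of 0.991. All 12 pairs above 0.95 belonged to it, with values from 0.972 (70-82) to 1.00 (61-90 and 62-89). Its 3 lower pairs were the terminal A–U pair 56-96 (0.775), the A–U pair 66-85 (0.947) and the wobble pair 67-84 (0.851), which closes the internal loop. These pairs took 99.4% of all pairing of their nts, and no other pair of these nts was above 0.0703.

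On its 5′ side stood the hairpin of nts 22 to 54, which closed most firmly at its loop. Its 10 pairs had a median of 0.681. The 4 pairs next to the loop, 30-43 to 33-40, were between 0.794 and 0.807, and the 6 outer pairs between 0.517 and 0.694. The lowest, 25-51, shared nt 25 with the alternative pair 25-50 (0.330). On its 3′ side, directly abutting at nt 97, the hairpin of nts 97 to 132 had 11 pairs with a median of 0.765 and a range from 0.589 to 0.889. Its lowest pair, 104-125, competed for nt 125 with 103-125 (0.308), a shift by 1 nt. These 3 hairpins stood side by side from nt 22 to nt 132, with nt 55 the only nt between them.

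The hairpin of nts 150 to 202 was the one with the most pairs, 18, of which 5 were G–U pairs. It had a firmer inner part, 12 pairs of nts 161–173 with nts 179–192 and a median of 0.835, and a weaker outer part, 6 pairs with values from 0.538 to 0.587. The remaining exon 1 hairpins were small. Nts 266 to 277 formed 4 pairs around the loop GAGA, a GNRA tetraloop, a compact loop type found in many structured RNAs. Their values were 0.603 for the terminal pair 266-277 and 0.893 to 0.911 for the other 3. Nts 278 to 289 formed 3 G–C pairs (0.655 to 0.770) around the loop AGCAGA and started on the nt after the tetraloop hairpin ended.

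Exon 2 had a single helix of its own, the hairpin of nts 325 to 374. Its 16 pairs had a median of 0.914, and 15 of them were above 0.8, but none reached 0.95. The exception was the wobble pair 333-366 (0.511), whose nt 333 had a listed alternative one position away, 333-365, at 0.405. The pair 347-352, which closes the loop GAAG, had 0.916, and the next pair outward, 346-353, was the highest at 0.934. An unpaired GAGA at nts 357 to 360 faced nts 338 to 341 across the internal loop.

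Exons 2 and 3 were joined by a pair of nested helices that included the splice junction. The inner helix, nts 468 to 527, had 17 pairs with a median of 0.659, of which 9 joined exon 2 to exon 3 and 8 lay within exon 3. The 6 pairs from 484-511 to 489-506 run across the junction, which falls after nt 485, and were the firmest at 0.844 to 0.924. The 4 pairs between them and the loop were between 0.609 and 0.698. The outer 7 were between 0.5003 and 0.521. The outer helix joined nts 412 to 419 to nts 534 to 541, UUGGAGAG with CUCUCCAA, through 8 uninterrupted Watson–Crick pairs. Its values barely passed 0.5, from 0.5004 (412-541) to 0.505, and were nearly the same for all 8 pairs. The adjoining pairs 411-542 (0.490), 420-533 (0.488) and 421-532 (0.427) continue it but lay below 0.5 and were not counted. The highest member pair below 0.5 had 0.497, so the division at 0.5 falls within a continuous run of values. The outer helix held the longest-spanning pairs above 0.5, namely 412-541 over 129 nts (0.5004), 413-540 over 127 nts (0.503) and 414-539 over 125 nts (0.505). The last helix, nts 617 to 628 of exon 3, had 4 pairs (0.574, 0.851, 0.832 and 0.630 from the outside inward) around the loop GAAU.

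**Figure D4:**
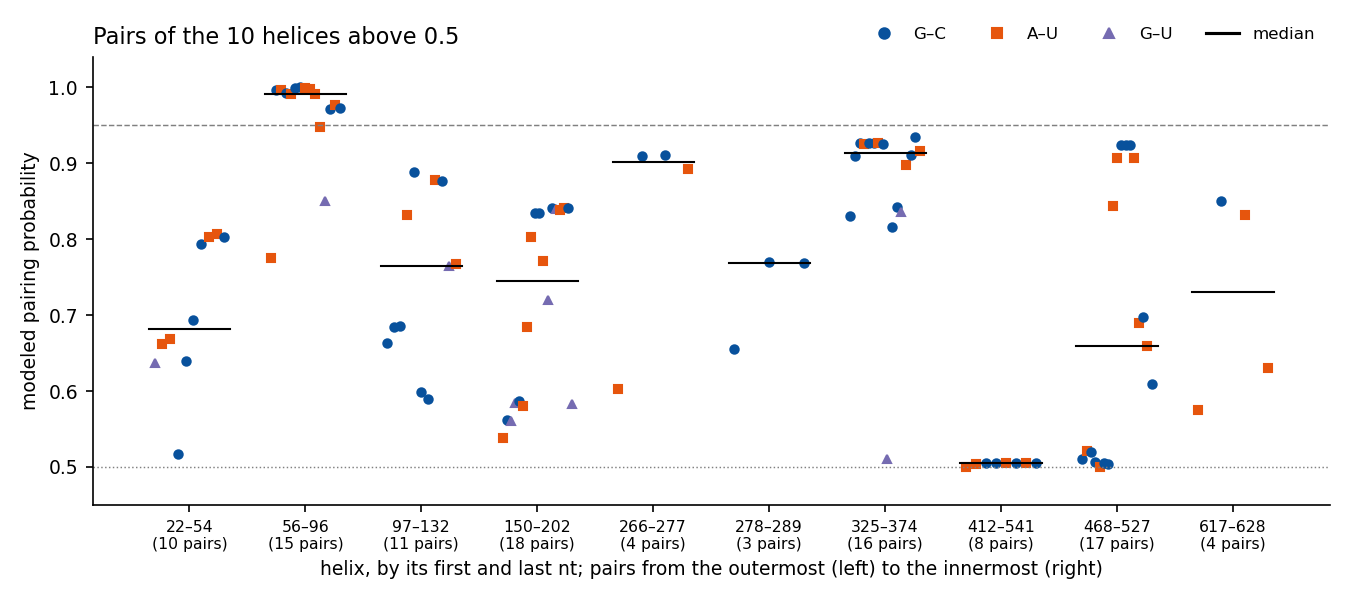
Modeled probability of every pair in the 10 helices above 0.5, by helix, with pairs ordered from the outermost to the innermost; marker shape and colour give the kind of pair, the bar the median, and dashed and dotted lines 0.95 and 0.5. Values above 0.95 occur in the helix of nts 56 to 96 alone, and the 8 pairs of the helix of nts 412 to 541 lie together just above 0.5.

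Weaker chains of pairs lay between the helices, and some of them used nts of the helices themselves. Among the member pairs outside the 10 helices, 23 chains of at least 5 nested pairs above 0.1 were found, with 220 pairs in all and medians from 0.106 to 0.474. This lower limit was chosen after the values were seen. Of these chains, 7 lay within exon 1, 5 within exon 2, 3 within exon 3, 4 joined exons 1 and 3, 3 joined exons 1 and 2, and 1 joined exons 2 and 3. The last, nts 466–476 with nts 518–529, nests with the pairs of the inner helix, so both can form together. The highest was a hairpin in exon 3 that paired nts 567–583 with nts 592–604 through 12 pairs (median 0.474). It shared nts with a long-range chain of 9 pairs that joined nts 133 to 141 of exon 1 (GCUCUGUUU) to nts 565 to 573 of exon 3 (GAACAGAGC) over 440 nts, at a median of 0.372. The chain with the most pairs, 26, faced nts 206–240 of exon 1 with nts 528–561 of exon 3 (median 0.302). The 5′ terminal nts 3 to 28 faced the same part of exon 3, nts 527 to 557, in 22 pairs with a median of 0.157.

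The 3′ strand of the outer helix, nts 534 to 541, was where several of these chains met. Of its pairing, 56.2% went to nts 412 to 419 in exon 2, 30.3% to nts 209 to 232 and 9.80% to nts 17 to 22, both in exon 1. On the other strand, 66.2% of the pairing of nts 412 to 419 went to the helix and 33.1% to other nts of exon 2, including a hairpin of nts 405 to 417 with 5 pairs (median 0.326). The outer pairs of the inner helix had a rival of the same kind, a set of 13 pairs that joined nts 310–324 to nts 468–482 within exon 2 (median 0.381). At the 3′ end of the stretch, nts 629 to 676 kept 22.2% of their pairing within it, the lowest share among the 8 intervals of at least 15 nts between helices. In the other 7 intervals it was at least 89.9%.

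Both exon junctions are shown with 10 nts on either side, since the order of exons sets which of these pairs can form. Capitals mark the 4 nts around the junction.

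Exons 1 and 2, nts 289 to 308: gagagaaaAGAUggaauaaa
Exons 2 and 3, nts 476 to 495: guggcuuaAAGGcacucuac

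The exon 2–exon 3 junction was firmly paired and the exon 1–exon 2 junction was not. Nts 484 to 487 had summed probabilities of 0.844, 0.952, 0.983 and 0.931. Nts 297 to 300 had 0.335, 0.406, 0.446 and 0.627. The best partners of the latter lay in exon 3, in 8 pairs that joined nts 297–304 (AGAUGGAA) to nts 519–526 (UUCCAUCU) at a median of 0.358, part of whose exon 3 strand also belongs to the inner helix above. On chromosome 15 (GRCh38) exon 1 ends at 69562017, exon 2 runs from 69563116 to 69563302 and exon 3 starts at 69563590. Both introns begin with GT and end with AG. GENCODE release 44 lists 74 transcripts of DRAIC. The exon 2–exon 3 junction occurs in 40 of them and the exon 1–exon 2 junction in 9. Both junctions occur together in 6. Exon 1 with both ends it has in DRAIC-244 is listed in 1 transcript, and its 3′ end in 10. Exons 1 to 3, each with those ends, occur together in 1. How much of exon 1 the other transcripts hold was not examined. The deposited model describes an RNA with all 3 exons, and RNAs with other first exons are not analysed here.

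As a comparison for nts that carried no restraints, the same sequence was folded without any restraints by ViennaRNA. With the whole RNA folded and at most 600 nts between partners, 101 pairs of the stretch were above 0.5. Of these, 59 were also above 0.5 in the deposited model, which is 55.7% of the deposited and 58.4% of the unrestrained set. Over the 1500 pairs, which come from 1 RNA and share nts, Pearson's r between both probabilities was 0.80 and the median absolute difference was 0.0167. The number of pairs above 0.95 was 12 in each. These folds differ from the deposited model in software, in folding windows and in the restraints on the probed nts, and the part of each cannot be told apart.

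The helices differed in how far they depended on the stretch folded. The helix of nts 56 to 96 had a median between 0.971 and 0.992 in 5 unrestrained folds, those of the whole RNA with and without the limit on span, of exons 1 to 3, of nts 1 to 676 and of its own nts alone. The medians of the helices at nt 266 (0.518 to 0.985) and nt 468 (0.555 to 0.943, with the lowest in the whole RNA) also stayed above 0.5 in all 5. In the whole RNA with the limit on span, however, the outer pairs at nt 468, from 468-527 to 479-512, were between 0.175 and 0.440. The medians of the other 7 helices fell below 0.5 in at least 1 fold. All 10 were chosen for pairs above 0.5 in the deposited model, and that choice alone favours lower values in other folds. The exon 2 hairpin at nt 325 had 0.910 in the whole RNA, 0.446 in nts 1 to 676, 0.339 in exons 1 to 3 and 0.0166 in the whole RNA without the limit on span. The outer helix at nt 412 went the other way, with 0.170 in the whole RNA but 0.960 in nts 1 to 676, 0.937 in exons 1 to 3 and 0.999 without the limit on span. Its 3′ strand had a rival in the whole RNA, where nts 3–19 faced nts 537–557 in 14 pairs at a median of 0.660, against 0.163 for the same pairs in the deposited model. The chain at nt 133 with nts 565 to 573 had 0.372 in the deposited model and 0.00162 in the unrestrained whole RNA. When each helix was folded from its own nts alone, all 10 medians were above 0.5, from 0.506 at nt 22 to 1.00 at nt 412. That fold, which counts among the 5, leaves out every rival partner outside the helix. Its values therefore do not show how a helix fares against the rest of the RNA.

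**Figure D5:**
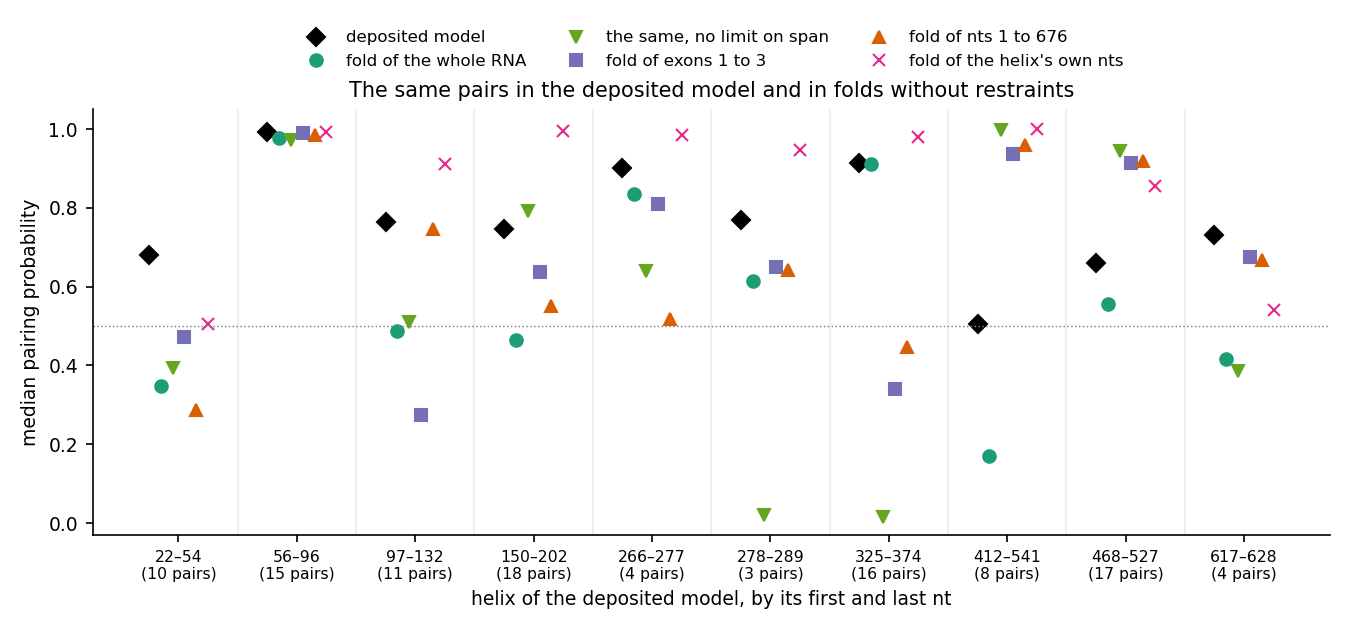
Median probability of the pairs of each helix in the deposited model (black) and in 5 folds without restraints (colours), by helix; the dotted line is 0.5. The 6 values for nts 56 to 96 lie together near the top, and those for nts 325 to 374 and 412 to 541 spread over most of the axis.

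The folding energies of the 9 hairpins in isolation are set beside their modeled medians, and a link between them was not tested. The hairpins differ in their number of pairs, and the energies were not scaled for this. With only its pairs above 0.5 formed, the hairpin at nt 325 had the lowest free energy by ViennaRNA's energy model, at -18.8 kcal/mol, followed by -17.6 kcal/mol at nt 150 and -13.2 kcal/mol at nt 56. The modeled medians of the 3 were 0.914, 0.745 and 0.991. The hairpin of nts 617 to 628 had 0.2 kcal/mol and a modeled median of 0.731. The hairpin at nt 97 had -9.8 kcal/mol (median 0.765) and that at nt 468 had -6.7 kcal/mol (0.659). Those at nts 22, 266 and 278 had -3.6, -3.2 and -1.9 kcal/mol, with medians of 0.681, 0.901 and 0.768. No error can be attached to these values, because they come from 1 sequence and 1 model.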

How the data were processed

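RNA of LNCaP cells was probed with 5NIA or DMSO in 1 library each. Per the methods, ShapeMapper2 turned mutations in the reads into reactivities, and SuperFold used these to restrain the folding of the whole RNA. Versions and settings are not given in the sources used here. The deposited values are the −log10 of the modeled pairing probability of each listed pair, in 1 model with no column per library. Read depth is unknown. For each pair, 10 was raised to minus this value. A pair absent from the list counted as 0.

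The numbering was placed on the DRAIC transcripts of GENCODE release 44. All 3469 pairs were canonical when nt 1 was set to nt 31 of DRAIC-244, against 2900 for the next best sequence. A fixed rule named all helices of at least 3 nested pairs above 0.5 and the highest pair of each pair of exons. It also named the 3 longest pairs above 0.5, the longest runs of nts summing to under 0.1, and the nts summing to over 1. Chains above 0.1, rival pairs and helices of the unrestrained folds were named outside this rule. The limit of 0.1 for chains was chosen after the values were seen. Members and rules were chosen with earlier results of these data known. Unrestrained partition functions were made with ViennaRNA 2.7.2 at 37 °C, with pairs under 0.001 left out of counts. With no replicates, probabilities and entropies were taken as unchanged within 0.05, percentages within 5 points, and counts and spans within 1.5 times. The helix finder was tested on simulated data. Scripts ran under Python 3.11.15 with numpy 2.4.6, and matplotlib 3.10.9 drew the figures. Reads and reactivities are not analysed here.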

Additional observations from a re-analysis of the deposited data

How the results depend on the processing

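Alternatives gave 40 values for 10 summary results, of which 25 stayed within the margins and 15 moved. For the medians of single helices, 35 of 50 values moved. These helices were chosen for pairs above 0.5 in the deposited model, so their medians can fall in other folds from that choice alone. No paired analysis was possible because the file holds a single model with no values per library, and for the same reason no library could be left out. Causes of the shifts were not tested, except where the alternative's construction sets them.

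Folding the whole RNA without restraints moved the median entropy of a nt from 0.250 to 0.320 and the median over the 10 helix medians from 0.755 to 0.521. That median was 0.655 with nts 1 to 676 folded alone and 0.662 with exons 1 to 3 folded alone. It was 0.964 with the nts of each helix folded alone, which leaves out all rival partners outside the helix. This last alternative was chosen after seeing the data. Folding nts 1 to 676 alone gave 31 pairs above 0.95 in place of 12. The share of nts with such a pair then went from 4.44% to 9.17%, which the margin of 5 points counts as unchanged. No fall from 4.44% could pass that margin. Without the limit on span, 75.3% of the pairing stayed within the stretch in place of 93.1%, and 81.7% of the member pairing lay within an exon in place of 73.7%. Counting only pairs above 0.5, once each, put 84.0% within an exon. A threshold of 0.90 in place of 0.95 gave 30 pairs. At 0.80, 17.3% of nts had such a pair, against 4.44% at 0.95. There was 1 helix at a threshold of 0.95. There were 21 with no unpaired nts allowed between pairs, since bulges, internal loops and pairs not above 0.5 then split the 10. The median span was 30 nts weighted by probability and 25 nts over pairs above 0.5, against 63 nts over all members.

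The number of pairs above 0.5 stayed at 101 to 156 under its alternatives, and 59 of the 101 in the unrestrained whole RNA were among the 106 of the deposited model. All pairs of the helix at nt 412 lie between 0.5 and 0.505, so its presence in the count of 10 rests on that threshold. Depth is unknown, and its effect on the restraints was not examined.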
